A study of Mus musculus with 57 samples.

Results

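Meis1, Meis2 and Meis3, Pbx2 and Pbx3, and the COUP-TF genes Nr2f1 and Nr2f2 are 7 of the 55450 genes in a count table of differentiating mouse embryonic stem cells (ESCs). They were chosen by name, with the Ensembl identifiers of the table matched to gene symbols in GENCODE M21. All 7 were followed through 19 conditions with 3 biological replicates each, 57 bulk RNASeq libraries in all. The cells were a single clonal ESC line, Sox1-EGFP/FoxA2mCherry, in which EGFP replaces 1 allele of Sox1, an early neuroectoderm gene, and mCherry marks FOXA2, a factor of endoderm. Differentiating cultures in N2B27 medium with 1 uM retinoic acid (RA) were sorted by fluorescence at day 2, 4 or 6 (D2, D4, D6) into 4 gates, with both reporters off (Sox1-FOXA2-, called double-negative below), only the first on (Sox1+FOXA2-), only the second on (Sox1-FOXA2+) or both on (Sox1+FOXA2+, called double-positive).

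At D0 the cells were in serum with LIF, without RA, and only Sox1-FOXA2- cells were taken, so that day, medium and RA cannot be told apart between D0 and D2. For the progeny libraries, the 3 populations with at least 1 reporter on were sorted at D2, replated in serum with 1 uM RA and without LIF, and harvested at D4 or D6 without a new sort. Replating, basal medium and the day of the sort therefore cannot be told apart between progeny and sorted cells. Each library came from a pool of cells, and in such bulk samples fewer cells of a type and less RNA per cell cannot be told apart. The libraries held 10170632 to 81845651 counts (median 36694379) and 14458 to 27832 genes with a count. Foxa2 RNA followed the gates, at 1478 to 3241 normalized counts in the Sox1-FOXA2+ sorts and 0 to 324 in the Sox1+FOXA2- sorts, whereas in the D6 double-positive sort 1 of 3 libraries had no Foxa2 count and the highest held 728. Sox1 RNA had 0 counts in all 57 libraries, so the Sox1 gate could not be checked on its own gene.

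MEIS and PBX proteins are homeodomain factors of the TALE class, which bind DNA together and as partners of HOX proteins. In the embryo they act downstream of RA in hindbrain, limb and neural crest, and MEIS binding keeps PBX in the nucleus. COUP-TFI (Nr2f1) and COUP-TFII (Nr2f2) are orphan nuclear receptors that RA induces in many stem and carcinoma cells. They are known for patterning the forebrain and, for COUP-TFII, for mesenchyme, veins and atria.

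The start regions of the genes are shown first because they carry what the genes share in sequence that the choice by name did not use. RefSeq windows of GRCm38, from 250 bases before to 50 bases after the start, were available for 6 of the 7 genes, as 7 windows with 2 for Nr2f1. Pbx3 was not matched. The 5 windows of Meis1, Meis2, Meis3 and Nr2f1 ran over exons of their own gene and are not printed. The stretches before the start of Pbx2 (chr17:34592009-34592258, plus strand) and Nr2f2 (chr7:70366747-70366996, minus strand) differ most plainly in CpG, the dinucleotide set here in capitals.
Pbx2: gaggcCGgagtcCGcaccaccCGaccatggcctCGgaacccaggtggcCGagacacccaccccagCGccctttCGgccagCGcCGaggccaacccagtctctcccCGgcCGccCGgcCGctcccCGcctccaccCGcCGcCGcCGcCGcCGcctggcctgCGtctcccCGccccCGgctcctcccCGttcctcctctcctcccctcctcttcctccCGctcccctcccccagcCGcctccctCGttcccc
Nr2f2: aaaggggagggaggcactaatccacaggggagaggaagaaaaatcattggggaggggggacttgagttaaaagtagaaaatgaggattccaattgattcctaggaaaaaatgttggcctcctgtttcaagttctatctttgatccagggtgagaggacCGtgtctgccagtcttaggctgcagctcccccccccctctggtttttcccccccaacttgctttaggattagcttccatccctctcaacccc

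The Pbx2 stretch held 27 CpG and 77.6% G+C, and the Nr2f2 stretch held 1 CpG and 50% G+C. Over all 32851 windows the median was 6 CpG (quartiles 2 and 16) and 52.4% G+C before the start. In CpG count the other windows lay between them, with 13 for Meis1, 7 for Meis2, 12 for Meis3, and 22 and 2 for the windows of Nr2f1. The Nr2f2 stretch also overlaps an exon of the antisense gene B130024G19Rik. None of the 7 windows held, on either strand, the MEIS half-site TGACAG (in 19.2% of all windows), the PBX-HOX site TGATTGAT (0.7%) or the nuclear receptor half-site AGGTCA (16.3%). These counts describe these letters in these windows and say nothing of binding.

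On the genome (GRCm38), Meis1 (ENSMUSG00000020160.18, chr11:18879817-19018985) and Meis2 (ENSMUSG00000027210.20, chr2:115863064-116065839) lie on the minus strand, and Meis3 (ENSMUSG00000041420.18, chr7:16175090-16186504) on the plus strand. Pbx2 (ENSMUSG00000034673.14, chr17:34591266-34597400) lies on the plus strand, and Pbx3 (ENSMUSG00000038718.15, chr2:34171457-34373142) on the minus strand. Nr2f1 (ENSMUSG00000069171.14, chr13:78188973-78199757) and Nr2f2 (ENSMUSG00000030551.14, chr7:70351944-70366735) are both on the minus strand. Other genes overlap 18.3% of the exon bases of Meis1, 7.5% of Nr2f2, 6.2% of Pbx2 and 2.4% of Nr2f1. Since the strand setting of the counting is not given in the sources used here, reads of these overlapping stretches cannot be assigned to one gene with certainty.

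All 7 genes were detected, 5 of them in all 57 libraries, Meis3 in 53 and Nr2f1 in 49. Levels below are counts divided by DESeq2 size factors over all libraries (normalized counts), as mean ± SD of n = 3. To compare genes, these were divided by the length of the exons. Per kb, the mean over the 19 conditions was 892.6 for Meis2, 800 for Meis1, 515.2 for Pbx3, 338.7 for Pbx2, 289 for Nr2f2, 143.1 for Meis3 and 95.37 for Nr2f1. On this mean Meis2 and Meis1 were above Meis3, and Nr2f2 was above Nr2f1, although Nr2f1 had the higher mean per kb in D2 double-negative cells (21.58 against 18.21) and overlapped Nr2f2 in D2 double-positive cells.

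The mean of 6 of the 7 genes was lowest at D0, and 4 of them, Meis1, Meis2, Nr2f1 and Nr2f2, had their highest mean in the D6 progeny of Sox1+FOXA2- cells. Pbx3 was highest in D6 sorted Sox1+FOXA2- cells (6019 ± 1548), and Meis3 in D6 sorted double-positive cells, where its libraries ran from 227.9 to 2135. Pbx2 was the exception at both ends, with its highest mean in D2 Sox1-FOXA2+ cells (2168 ± 926.5) and its lowest in D6 Sox1-FOXA2+ cells (547.8 ± 299.8). With D0 left out, the highest condition mean was 65.7 times the lowest for Nr2f2 and 42.4 times for Nr2f1. The same ratio was 9.3 for Meis3, 7.42 for Meis2, 6.76 for Meis1, 5.01 for Pbx3 and 3.96 for Pbx2. When the 19 means of a gene were put in order, most neighbours did not differ beyond their spread, since the gap exceeded the SDs for 1 of 18 neighbouring pairs in 6 genes and for 5 of 18 in Nr2f2.

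**Figure D1:**
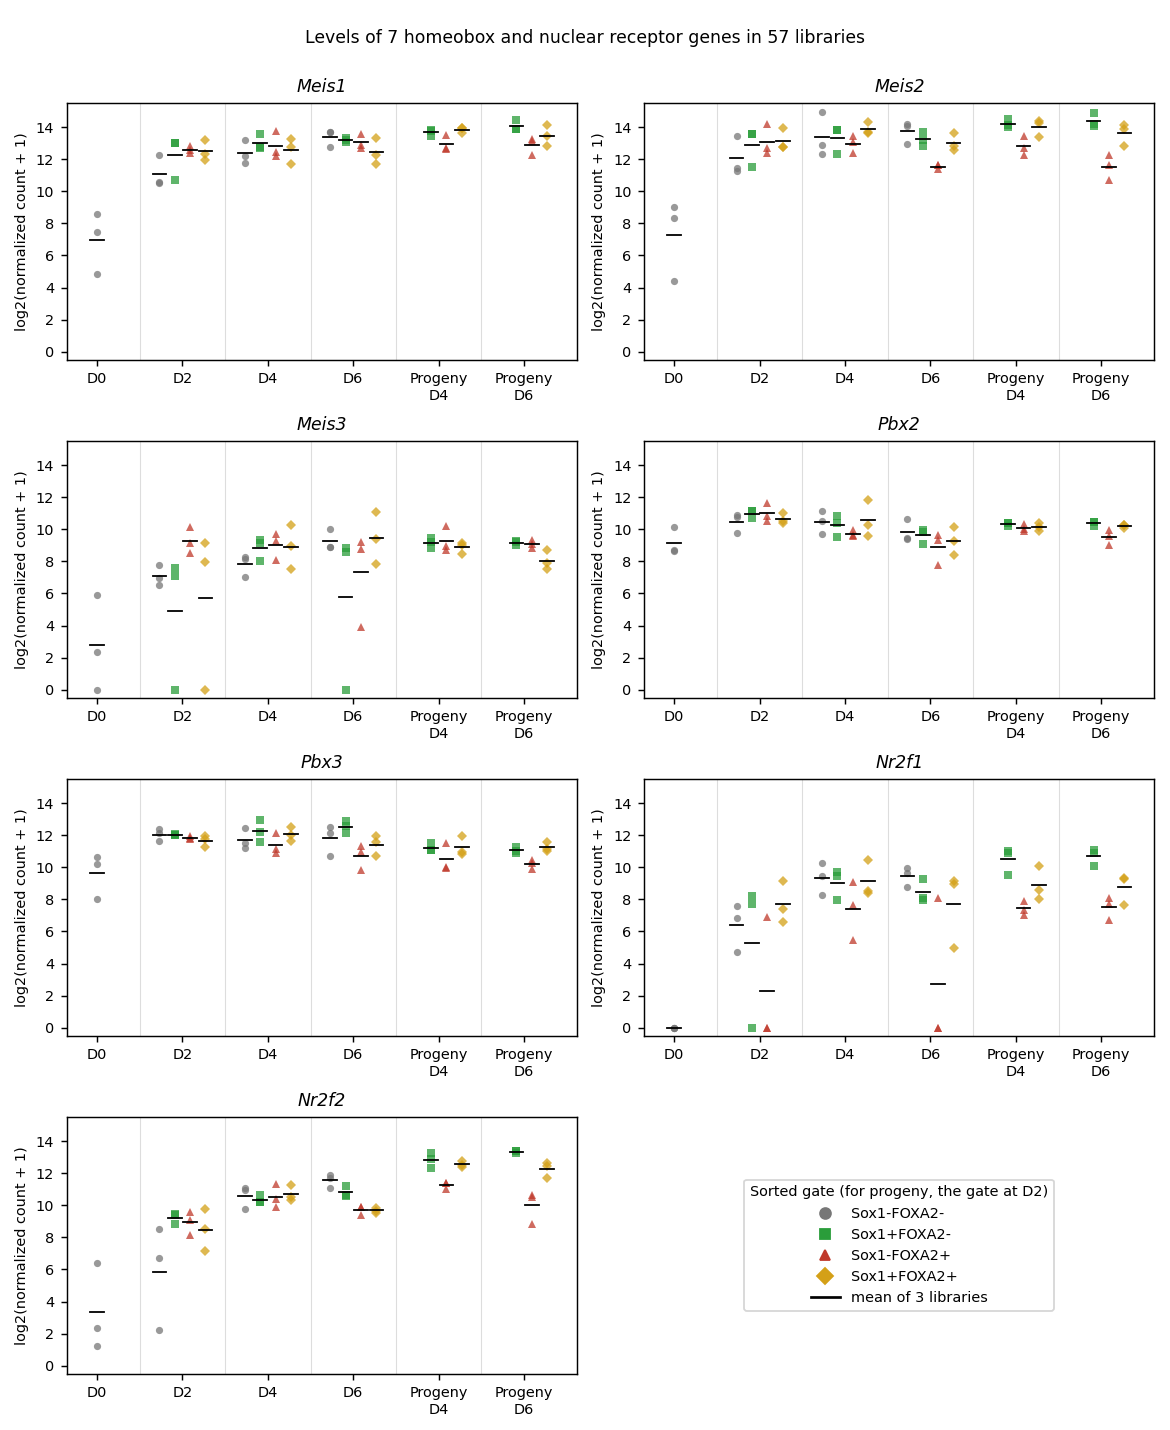
Each panel shows 1 gene as log2(normalized count + 1), with 1 point for each of the 57 libraries over the 19 conditions on the horizontal axis and a black bar at the mean of 3. Nr2f1 is at 0 in the 3 D0 libraries, and Nr2f2 reaches its highest values, 9730 to 10700 normalized counts, in the D6 progeny of Sox1+FOXA2- cells.

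From D0 to D2 the question was how the genes moved as ESCs left pluripotency. Meis1 held 27.37, 178 and 384.5 normalized counts in the D0 libraries, and 1441 to 22760 (median 8184) in the 54 later ones. Meis2 held 19.91, 324.3 and 520.9 at D0 and 1648 to 31380 (median 10850) later. For both genes all 54 later libraries, of every gate, lay above the highest D0 library. The share of all genes with that order over the 54 was not computed. Between D0 and D2 alone, 13.6% of all genes tested had all D2 libraries higher in double-negative cells. The shares were 9.67% in Sox1+FOXA2-, 10% in Sox1-FOXA2+ and 6.99% in double-positive cells.

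In Sox1+FOXA2- cells, Meis1 rose by 5.02 ± 0.80 on the log2 scale (± SE, edgeR quasi-likelihood, Benjamini-Hochberg adjusted p = 0.00485) and Meis2 by 5.07 ± 0.93 (adjusted p = 0.0128). In Sox1-FOXA2+ cells the rises were 5.08 ± 0.72 for Meis1 (adjusted p = 0.00101) and 5.20 ± 0.92 for Meis2 (adjusted p = 0.00591). In double-positive cells they were 5.05 ± 0.82 (adjusted p = 0.00565) and 5.15 ± 0.92 (adjusted p = 0.0135). The log2 changes of both genes thus lay close together in each gate with a reporter on. In double-negative cells Meis1 changed by 3.80 (adjusted p = 0.0651) and Meis2 by 4.30 (adjusted p = 0.147), which did not pass the test. Meis3, the MEIS gene of lowest level, held 59.73, 0 and 4.134 at D0 and 563.7, 371.4 and 1124 in D2 Sox1-FOXA2+ cells. It rose there by 4.96 ± 1.32 (adjusted p = 0.0315), whereas in D2 Sox1+FOXA2- cells, at 188.7, 137.9 and 0, the change of 2.37 did not pass (adjusted p = 0.501).

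Among the PBX genes, Pbx3 rose by 2.11 ± 0.42 in Sox1+FOXA2- cells (adjusted p = 0.00465), from 256.3, 1188 and 1581 at D0 to 4054, 4412 and 4124. In Sox1-FOXA2+ cells, at 3601, 3430 and 4008, its rise was 1.92 ± 0.53 (adjusted p = 0.0399). Pbx2 rose by 1.69 ± 0.46 in Sox1+FOXA2- cells (adjusted p = 0.0456), with 1117, 398.2 and 409.3 at D0 and 2216, 1654 and 2260 at D2. The PBX genes were already well above 0 at D0, and their changes were smaller than those of Meis1 and Meis2 in the same gates, a difference that was not tested.

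Nr2f1 had no count in any D0 library, which allows up to 3 counts in each. Against that limit its mean at D2 was at least 68.8-fold higher in double-positive cells (96.01, 167 and 556.8) and at least 27.7-fold higher in double-negative cells (190.3, 113.6 and 25.87). In Sox1+FOXA2- cells (205.2, 298.2 and 0) it was at least 42.3-fold higher. The test called Nr2f1 higher in all 3 (adjusted p = 0.00312, 0.00218 and 0.018), and not in Sox1-FOXA2+ cells, where 2 of 3 libraries were at 0 (adjusted p = 0.132). Nr2f2 held 84.61, 1.318 and 4.134 at D0. It reached 683.3, 693.9 and 459.7 in D2 Sox1+FOXA2- cells, a rise of 4.37 ± 0.94 (adjusted p = 0.0298), and 532.9, 775.2 and 282.7 in Sox1-FOXA2+ cells, a rise of 4.16 ± 1.04 (adjusted p = 0.033).

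In numbers, 6 of the 7 genes were called higher between D0 and D2 in Sox1+FOXA2- cells against 2.13% of all genes called, 5 in Sox1-FOXA2+ cells against 4.05%, 3 in double-positive cells against 1.48%, and 1 in double-negative cells against 1.93%. The median log2 change of the 7 was 4.37, 4.96, 3.92 and 2.75 in the same order, where the median of all genes tested was 0.19, 0, 0 and 0.12. The 4 comparisons share the same 3 D0 libraries, and 1 of these stood apart. D0 replicate 1 was the lowest D0 library for Meis1, Meis2 and Pbx3 and the highest for Meis3, Pbx2 and Nr2f2. Without it, a choice made after seeing the data, the rise of Nr2f2 came to 8.12 in Sox1+FOXA2- cells and 7.90 in Sox1-FOXA2+ cells, and that of Meis3 in Sox1-FOXA2+ cells to 8.88. These sizes therefore rest on few counts in the D0 libraries. With 1 replicate number left out of all groups, each of the 15 calls from D0 to D2 was lost in at least 1 such fit (adjusted p of 0.0794 to 0.522 where lost), among them Meis1 without replicate 2 and Meis2 without replicate 2 or 3 in every gate with a reporter on.

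RA was added over the same interval, and genes that respond to it moved too. Of 15 genes of RA response and metabolism, 5 were called higher in Sox1+FOXA2- cells, 7 in Sox1-FOXA2+ cells, 5 in double-positive cells and 3 in double-negative cells, with Rarg called lower in both FOXA2+ gates. In Sox1+FOXA2- cells the largest were Cyp26b1, which clears RA and had no count in any D0 library, Dhrs3, a retinaldehyde reductase (log2 change of 7.78, with 2 of 3 D0 libraries at 0), and Stra8 (5.16). Of 15 HOX genes of paralogue groups 1 to 5, the partners of PBX, 7 to 9 passed the filter on low counts, and 4, 2, 2 and 2 were called higher in Sox1+FOXA2-, Sox1-FOXA2+, double-positive and double-negative cells. Of 7 other TALE and COUP-family genes, Pknox2 was higher in 3 gates, at 3.56 in Sox1+FOXA2- cells (adjusted p = 1.71e-05), and Pbxip1, which binds PBX proteins, in Sox1-FOXA2+ cells (2.61). Tgif1, a TALE repressor, fell by 1.69 in Sox1-FOXA2+ cells. The pluripotency list (8 genes, such as Nanog) had a mean log2 level of 13.14 at D0 and of 7.55 in D2 Sox1-FOXA2+ but 11.56 in D2 double-negative cells, with 7 and 1 genes called lower, and its part in the results for the 7 genes was not tested.

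**Figure D2:**
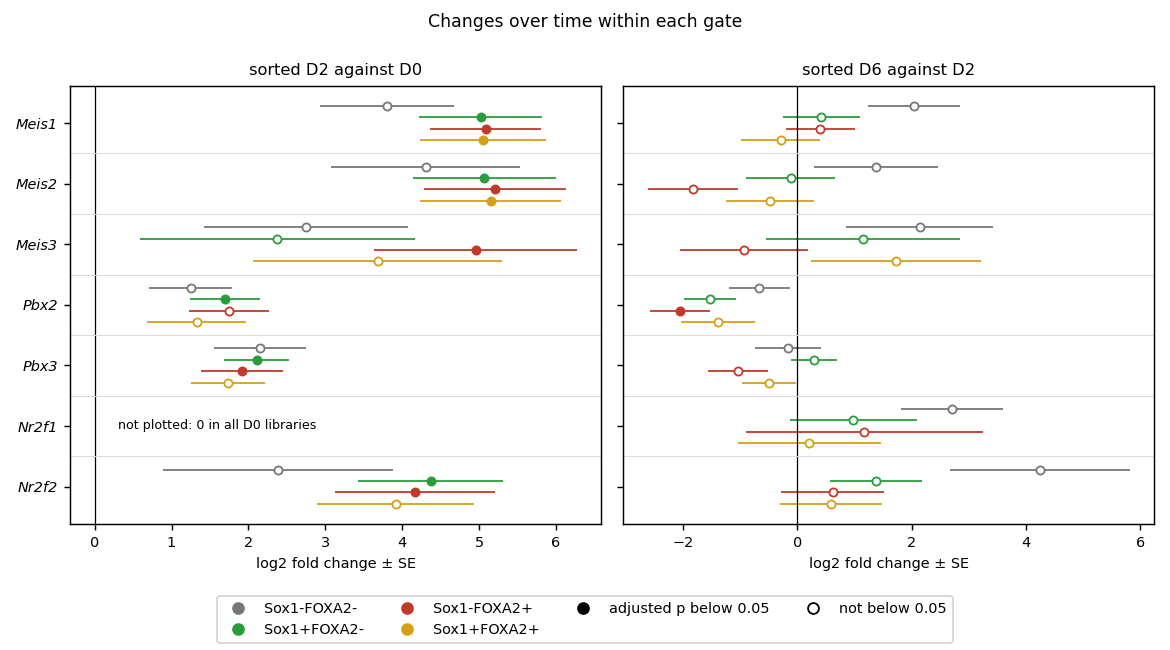
Log2 fold changes ± SE of the members within each gate, from D0 to D2 and from D2 to D6 in sorted cells, with filled symbols where the adjusted p is under 0.05. Meis1 and Meis2 sit near 5 in the 3 gates with a reporter on, Nr2f1 is left out of the first comparison because all D0 libraries are at 0, and the only filled symbol from D2 to D6 is Pbx2 in Sox1-FOXA2+ cells (-2.05).

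From D2 to D6 in sorted cells, changes were fewer. In Sox1-FOXA2+ cells Pbx2 held 1454, 1835 and 3215 normalized counts at D2 and 794, 213.9 and 635.4 at D6. All 3 later libraries were below the earlier ones, as for 6.85% of all genes tested. Pbx2 fell by 2.05 ± 0.53 on the log2 scale (adjusted p = 0.0354), the only member called there against 1.9% of all genes. That call was lost with replicate 2 (-1.72, adjusted p = 0.338) or replicate 3 (-1.77, adjusted p = 0.232) left out of all groups. Meis2 in the same cells, at 18520, 6713 and 5282 and then 2704, 3146 and 3131, did not pass (-1.82, adjusted p = 0.27). In the other gates edgeR called no member, against 0.0446% of all genes called in Sox1+FOXA2-, 0.234% in double-positive and 0.0188% in double-negative cells. Of those 21 tests, 5 had an unadjusted p under 0.05, and DESeq2 made 3 calls.

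In double-negative cells, for example, Nr2f2 went from 362.9, 104.6 and 3.696 at D2 to 3804, 3379 and 2149 at D6 with no overlap, as 15.2% of all genes tested had there, and Meis1 from 4838, 1528 and 1441 to 13310, 6871 and 13450. Neither was called.

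Between gates on the same day the question was whether the genes separate neuroectoderm-side from endoderm-side cells. At D2 no difference passed. Meis1 held 8210, 8157 and 1688 in Sox1+FOXA2- cells and 5434, 7128 and 6185 in Sox1-FOXA2+ cells, with a log2 difference of 0.08 ± 0.61. Meis2 (12430, 12320 and 2940 against 18520, 6713 and 5282) and Nr2f2 (683.3, 693.9 and 459.7 against 532.9, 775.2 and 282.7) overlapped between these gates too. Replicate 3 of Sox1+FOXA2- was the lowest library of that gate for Meis1, Meis2 and Nr2f2. Meis3 was higher in all Sox1-FOXA2+ libraries (563.7, 371.4 and 1124 against 188.7, 137.9 and 0, log2 difference of 2.66 ± 1.67). Pbx3 was lower in all of them (3601, 3430 and 4008 against 4054, 4412 and 4124, -0.17 ± 0.26). Neither was called, and 10.1% of all genes tested had no overlap between these gates.

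In the 5 comparisons at D2 edgeR called no member, and in none of the 35 tests was the unadjusted p under 0.05, nor did DESeq2 call any. Few genes of any kind passed. Of all genes, 0.00491% were called for Sox1-FOXA2+ against Sox1+FOXA2-, 0.0196% between Sox1-FOXA2+ and double-negative, and 0 in the other 3. At D4 the 35 tests by edgeR again gave no call, no unadjusted p under 0.05 and no call by DESeq2. The shares of all genes called at D4 were 0.266% for Sox1-FOXA2+ against Sox1+FOXA2-, 0.475% for double-positive against Sox1-FOXA2+, 0.336% for Sox1-FOXA2+ against double-negative, and 0 for the others. Spread within a gate was wide at that day, as Meis2 in D4 double-negative cells was 5218, 7658 and 31380.

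At D6 Meis2 set Sox1-FOXA2+ cells apart from both gates without FOXA2. It held 2704, 3146 and 3131 normalized counts in Sox1-FOXA2+ cells, 9468, 7108 and 13560 in Sox1+FOXA2- cells and 18650, 8062 and 17580 in double-negative cells. Every Sox1-FOXA2+ library was below every library of these gates, as 16.3% (Sox1+FOXA2-) and 8.77% (double-negative) of all genes tested were. The 3 Sox1-FOXA2+ libraries were close to each other (2993 ± 251.2). Meis2 was lower by -1.57 ± 0.39 on the log2 scale than in Sox1+FOXA2- cells (adjusted p = 0.0297) and by -2.31 ± 0.40 than in double-negative cells (adjusted p = 0.00101). It was the only one of the 7 called in either comparison, against 1.32% and 1% of all genes.

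The first of these calls was fragile, since it was lost without any 1 Sox1-FOXA2+ library or without replicate 1 or 3 of Sox1+FOXA2- (-1.74 to -1.34 over the fits with 1 library left out). Whether the gate difference of Meis2 at D6 differed from that at D2 was tested and did not pass (interaction of -1.64 ± 0.73, unadjusted p = 0.0351, adjusted p = 0.331, against 0.71% of all genes called and no member by edgeR or DESeq2).

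The other members did not pass at D6. Pbx3 held 2560, 2028 and 898.7 in Sox1-FOXA2+ and 6082, 4440 and 7535 in Sox1+FOXA2- cells with no overlap (-1.47, adjusted p = 0.167), and 23.2% of all genes tested had no overlap there. Nr2f2 held 960.9, 950.7 and 681.2 against 1526, 2389 and 1596 (-0.90, adjusted p = 0.422). Nr2f1 was at 268.7, 0 and 0 against 272.5, 623.6 and 247.8 (-1.79, adjusted p = 0.734). Meis1 was at 7678, 6623 and 12280 against 9265, 10310 and 8569, with a fitted difference of 0.04 and a ratio of mean normalized counts of 0.945, which differ in direction. Meis3 was on the other side (0.59, ratio of means 1.27) and Pbx2 did not pass either. The median difference of the 7 was -0.90 where that of all genes was -0.30. Against double-negative cells, Nr2f2 (3804, 3379 and 2149 there) and Nr2f1 (1011, 790.5 and 444.9) were also lower in every Sox1-FOXA2+ library. As for Meis2, 8.77% of all genes tested had that order. By edgeR, Nr2f2 was at -1.84 (adjusted p = 0.0888) and Nr2f1 at -2.93 (adjusted p = 0.527).

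In the double-positive sort Meis2 was 7342, 6012 and 12530, above every Sox1-FOXA2+ library, as 6.9% of all genes tested were. These values were within the range of Sox1+FOXA2- cells except for 1 lower library. No member was called by edgeR between double-positive and Sox1-FOXA2+ cells (0.0909% of all genes called), for double-positive against Sox1+FOXA2- (0.0496%) or for Sox1+FOXA2- against double-negative cells (0). Of these 21 tests 3 had an unadjusted p under 0.05, and DESeq2 made 2 calls.

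Markers of other cell types moved along the same gates at D6. Of 13 extraembryonic endoderm markers, 8 were higher and none lower in D6 Sox1-FOXA2+ cells relative to Sox1+FOXA2-, with summary levels (mean log2) of 12.7 to 14.19 against 8.58 to 8.78. This list includes Foxa2, the gene of a reporter used for sorting, so that its direction was set by the gates. Of 12 neural progenitor markers, 9 were tested and 2 were lower, at 3.13 to 4.12 against 5.71 to 8.37, and 4 of the 12 had no count in any Sox1-FOXA2+ library of that day. Mesenchyme and neural crest markers were at 3.30 to 4.48 in Sox1-FOXA2+ cells, 5.79 to 7.24 in Sox1+FOXA2- cells and 7.41 to 8.82 in double-negative cells, and pluripotency markers at 8.34 to 8.98, 9.39 to 11.36 and 11.11 to 11.3. Of 10 mesenchyme and neural crest markers tested between Sox1-FOXA2+ and Sox1+FOXA2- cells, 1 was called, and it was higher. No pluripotency marker was called there. Against double-negative cells no mesenchyme and neural crest marker was called, and 1 pluripotency marker was lower. Their part in the differences of the 7 genes was not tested.

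**Figure D3:**
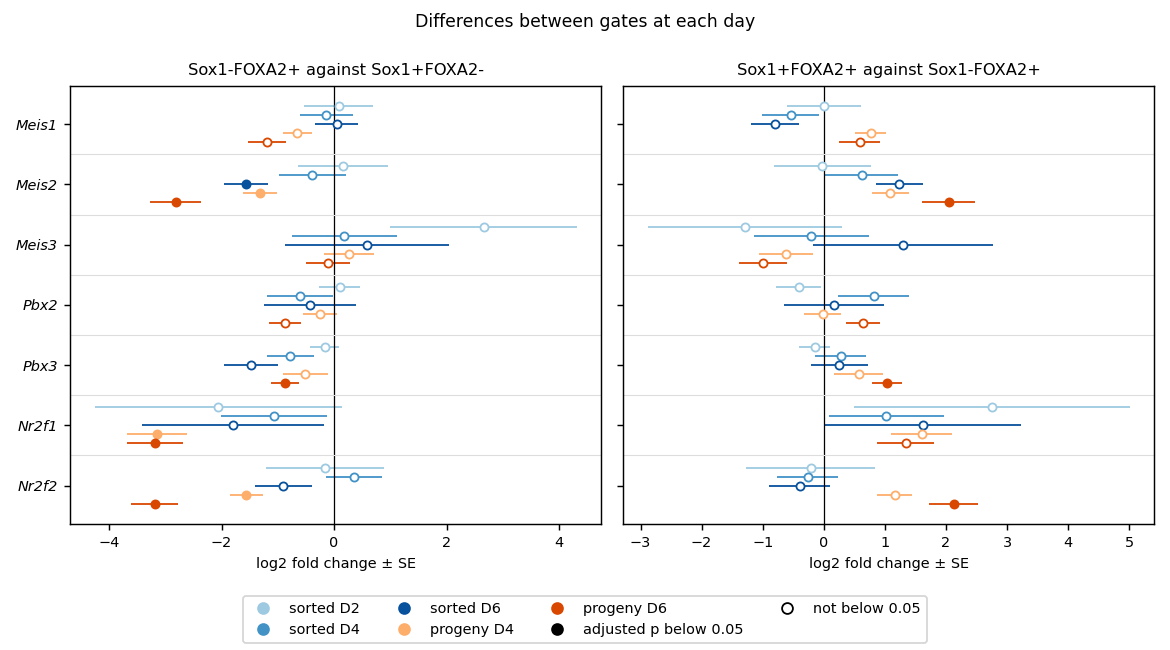
Log2 differences ± SE between gates for each member at D2, D4 and D6 in sorted cells and at D4 and D6 in progeny, for Sox1-FOXA2+ against Sox1+FOXA2- and for double-positive against Sox1-FOXA2+. Filled symbols have an adjusted p under 0.05, and the filled ones gather in the D6 progeny, where Nr2f1 and Nr2f2 are both at -3.19 in the first comparison.

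The progeny were sorted by gate at D2, when no member passed the test between gates, so that here the question was what the same gates gave later without a further sort. In D4 progeny of Sox1-FOXA2+ cells Meis2 held 6653, 4986 and 11190 against 23480, 16500 and 17850 in progeny of Sox1+FOXA2- cells. Nr2f2 held 2055, 2733 and 2731 against 5117, 9644 and 7546, and Nr2f1 held 240.1, 131.7 and 161.6 against 2111, 1925 and 734.8. In each of these 3 genes all progeny of Sox1-FOXA2+ cells were below all progeny of Sox1+FOXA2- cells, as 6.33% of all genes tested were. All 3 were called lower, Meis2 by -1.31 ± 0.30 (adjusted p = 0.0241), Nr2f2 by -1.56 ± 0.29 (adjusted p = 0.00477) and Nr2f1 by -3.15 ± 0.53 (adjusted p = 0.00201), against 1.97% of all genes called.

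In D4 progeny Meis2 was no longer called without replicate 1 or 2 of Sox1-FOXA2+ (adjusted p = 0.131 and 0.127), whereas those of Nr2f1 and Nr2f2 held with any 1 library left out. With all 57 libraries in 1 fit none of the 3 was called. Meis1 (6502, 6582 and 11570 against 14440, 11350 and 13610) was not called (-0.65, adjusted p = 0.343), but with the replicate number as a block, since same-numbered libraries varied together here, it was (-0.69, adjusted p = 0.0261). The median difference of the 7 was -0.65 where that of all genes was -0.02.

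By D6 the test called 4 of the 7 genes lower in progeny of Sox1-FOXA2+ cells. Nr2f2 held 449.1, 1467 and 1607 in progeny of Sox1-FOXA2+ cells and 9730, 10510 and 10700 in progeny of Sox1+FOXA2- cells, the tightest of its groups for its level (10320 ± 516.1). Nr2f1 held 105.2, 270.2 and 205.6 against 1070, 2179 and 1878. Meis2 held 1648, 4972 and 3190 against 18900, 30420 and 17330. None of these ranges touched, where 13.3% of all genes tested were lower in that way, and the means in Sox1-FOXA2+ progeny were 0.114, 0.113 and 0.147 times those in Sox1+FOXA2- progeny. The log2 differences were -3.19 ± 0.42 for Nr2f2 (adjusted p = 0.000548), -3.19 ± 0.50 for Nr2f1 (adjusted p = 0.000899) and -2.82 ± 0.45 for Meis2 (adjusted p = 0.00276).

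These 3 calls held with any 1 of the libraries left out, over ranges of -3.45 to -2.81, -3.53 to -2.90 and -3.27 to -2.46. Pbx3 was the fourth gene called lower, at 943.8, 1253 and 1409 against 1900, 2425 and 2047 (-0.87 ± 0.24, adjusted p = 0.0425), and it was not called once any 1 library was left out. Meis1 held 9624, 9171 and 4948 against 15110, 22760 and 14910 (-1.19, adjusted p = 0.0541) and Pbx2 508.5, 777.1 and 982.2 against 1382, 1194 and 1433 (-0.87, adjusted p = 0.0875), with no overlap in either. Meis3 overlapped, at 455.1, 547 and 653.6 against 589.1, 511.5 and 627.1 (-0.11, adjusted p = 0.959). The count of 4 of 7 stood against 6.91% of all genes called, and the median of -1.19 against -0.04. When all 57 libraries were fitted together the 3 leading calls were lost, with Meis2 at -2.78 (adjusted p = 0.0521) and Nr2f2 at -3.15 (adjusted p = 0.0754).

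**Figure D4:**
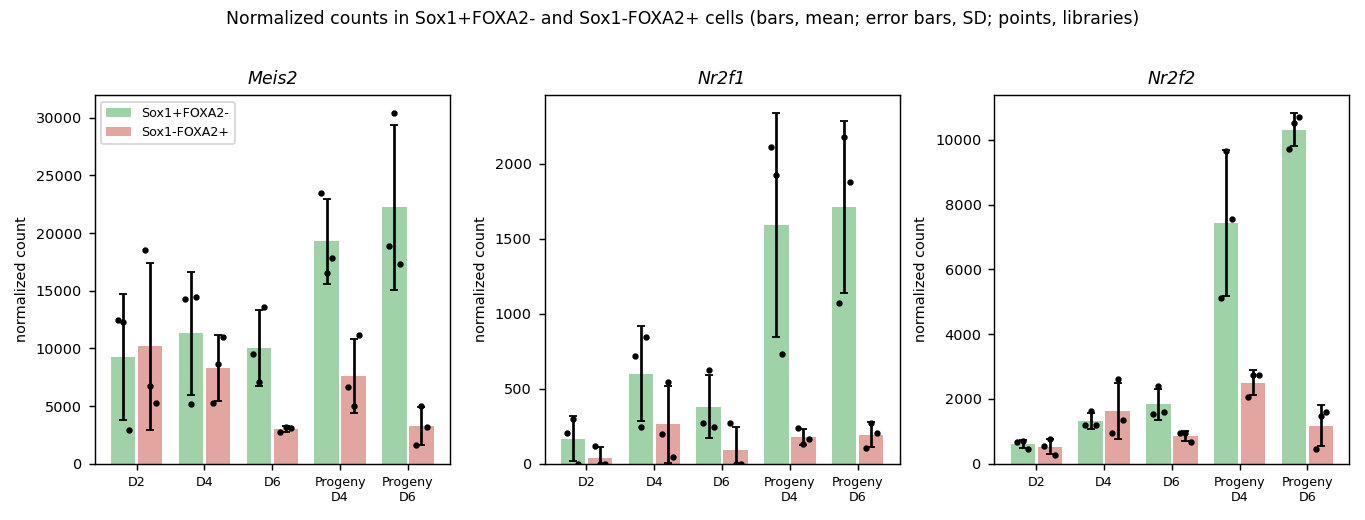
Normalized counts of Meis2, Nr2f1 and Nr2f2 in Sox1+FOXA2- and Sox1-FOXA2+ cells and their progeny, as bars of the mean ± SD with the 3 libraries as points and an axis from 0. The points of the gates overlap at D2 for all 3 genes, and in D6 progeny Nr2f2 stands at 10320 against 1174 and Meis2 at 22220 against 3270.

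Progeny of double-positive cells were called above progeny of Sox1-FOXA2+ cells in 3 of the genes. At D6 they held 3333, 5616 and 6428 of Nr2f2, 7166, 18250 and 15250 of Meis2 and 2282, 3047 and 2107 of Pbx3. All were above every Sox1-FOXA2+ library, as 11.2% of all genes tested were, and the genes were higher by 2.13 ± 0.40 (adjusted p = 0.0101), 2.04 ± 0.44 (adjusted p = 0.0231) and 1.03 ± 0.24 (adjusted p = 0.024), 3 of 7 members against 4.63% of all genes called. Without double-positive replicate 3 neither Nr2f2 (1.82, adjusted p = 0.0757) nor Meis2 was called, and Meis2 was also lost without double-positive replicate 2 or Sox1-FOXA2+ replicate 3. Nr2f1 (198.7, 626.6 and 651) was not called (1.34, adjusted p = 0.137), but it was with the replicate block (1.27, adjusted p = 0.0331). Pbx2 was also above every Sox1-FOXA2+ library (1210, 1088 and 1255 against 508.5, 777.1 and 982.2) but was not called (0.64, adjusted p = 0.266). Meis3 went the other way, at 186.7, 414.9 and 233, below every library of the Sox1-FOXA2+ and Sox1+FOXA2- progeny, and was called in neither comparison. Of all genes tested, 10.1% and 7.59% were lower in that way. The median difference of the 7 was 1.03 against 0.09 over all genes.

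In D4 progeny the same pair gave no call by edgeR against 0.792% of all genes, with Nr2f2 (6899, 5921 and 5252 in double-positive progeny) at 1.16 (adjusted p = 0.0673) and Meis2 (21730, 10740 and 19360) at 1.09 (adjusted p = 0.117). With the replicate block 3 members passed there, where same-numbered libraries also varied together, Nr2f2 (1.20, adjusted p = 0.00168), Meis2 (1.10, adjusted p = 0.00214) and Meis1 (0.80, adjusted p = 0.0126). Against Sox1+FOXA2- progeny no member was called by edgeR at D4 (0.00483% of all genes called) or D6 (0.18%). At D6 Nr2f2 was at -1.06 (adjusted p = 0.424) and Nr2f1 at -1.85 (adjusted p = 0.195), each with no overlap between the groups, as 16.5% of all genes had, and with the block Nr2f1 passed (-1.96, adjusted p = 0.0357). These 3 comparisons without a call held 21 tests, of which 8 had an unadjusted p under 0.05 and DESeq2 called 3. The comparisons of a day share libraries, and are given side by side only.

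The rest of the pathway in D6 progeny was as follows. Of 7 other TALE and COUP-family genes, 3 were lower in Sox1-FOXA2+ than in Sox1+FOXA2- progeny and none higher, namely Nr2f6, the remaining COUP-related receptor (-2.11, adjusted p = 0.0234), Pknox2, a relative of MEIS (-2.05, adjusted p = 0.0453), and Tgif1, a TALE repressor (-1.08, adjusted p = 0.0139). Of 7 tested HOX genes, 4 were lower and none higher, with Hoxb3 at -5.53, Hoxc5 at -4.89 and Hoxc4 at -4.30. The RA list did not move one way, with a median log2 difference of -0.80 where that of all genes was -0.04. In Sox1-FOXA2+ progeny 3 of its 15 genes were higher and 2 lower, the largest being the RA-clearing enzymes Cyp26c1 (371.1 ± 48.86 normalized counts against 0.9994 ± 0.9013) and Cyp26a1 (log2 difference of 3.93) and the retinol transporter Stra6 (3.47), all higher.

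Hoxb3 was likewise higher in double-positive than in Sox1-FOXA2+ progeny (5.19). In these D6 progeny, 11 of 13 extraembryonic endoderm markers were higher in the Sox1-FOXA2+ arm relative to Sox1+FOXA2- (mean log2 level of 13.02 to 14.25 against 10.26 to 10.78). The list again includes Foxa2, on whose reporter the parent cells were sorted at D2. Of 11 mesenchyme and neural crest markers 10 were tested, of which 2 were lower and 1 higher, at 5.08 to 7.90 against 8.73 to 9.02. Foxd3, a gene of this list, had 0 counts in all 57 libraries, as had Sox1, whose protein the study detected. Its 0 counts therefore say nothing of the presence of neural crest. Neural progenitor markers were at 3.46 to 4.21 against 4.19 to 4.96, with 2 of 9 tested lower. The part of any of these in the differences of the 7 genes was not tested.

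Progeny of a gate sorted at D2 and cells sorted by the same gate at D6 gave the last comparison. In the Sox1+FOXA2- gate at D6, all 3 progeny libraries were above all 3 sorted ones for 6 of the 7 genes, where 12% of all genes tested had that order. Nr2f2 went from 1526, 2389 and 1596 in sorted cells to 9730, 10510 and 10700 in progeny (2.71, adjusted p = 0.107), and Meis1 from 9265, 10310 and 8569 to 15110, 22760 and 14910. Pbx3 was the reverse, with 6082, 4440 and 7535 in sorted cells and 1900, 2425 and 2047 in progeny (-1.25, adjusted p = 0.0848). Marker lists moved between the same groups, from 6.32 to 8.87 (mean log2 level) for mesenchyme and neural crest, 8.66 to 10.55 for extraembryonic endoderm, 7.04 to 4.47 for neural progenitors and 10.3 to 7.40 for pluripotency, and their part was not tested. None of the 7 was called by edgeR against 3.91% of all genes, and their median was 1.26 where that of all genes was -0.44.

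Within Sox1-FOXA2+ and double-positive cells no member was called either, against 0.271% and 1.21% of all genes. Nr2f2 in the double-positive gate, 918.9, 743.1 and 806.4 in sorted cells and 3333, 5616 and 6428 in progeny, did not pass (2.94, adjusted p = 0.217). Over the 3 gates, 4 of the 21 tests had an unadjusted p under 0.05, of which 3 were in the Sox1+FOXA2- gate and 1 in the double-positive gate. DESeq2 made 3 calls, 2 and 1 in the same gates. Between D4 and D6 progeny of 1 gate, edgeR called no member and no gene at all, a share of 0 in each of the 3 gates. None of the 21 tests had an unadjusted p under 0.05, and DESeq2 called none. Whether the gate difference of Nr2f2 in D6 progeny differed from that in D6 sorted cells was tested by an interaction, which was -2.33 ± 0.59 and did not pass (unadjusted p = 0.000255, adjusted p = 0.133). No member was called by edgeR in that test, against 0.0413% of all genes, while DESeq2 called 1. With the replicate block Nr2f2 passed (-2.43, adjusted p = 0.0325).

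Across the 19 condition means, on the log2 scale, Meis1 and Nr2f2 had a Pearson r of 0.914, Meis1 and Meis2 of 0.9, and Meis2 and Nr2f2 of 0.844. The PBX genes were less like Nr2f2, at 0.175 for Pbx2 and 0.22 for Pbx3, and less like Meis1, at 0.251 and 0.4. With Meis2 they were at 0.528 (Pbx2) and 0.629 (Pbx3), beside 0.668 for Meis3 with Meis2. Between Pbx2 and Pbx3 the value was 0.55. The points share their libraries, depth and the low D0 condition, so these values are descriptions. Among 12636 genes with a mean of at least 100, those most like Meis1 were Clip1 (0.947), Ube2r2 and Samd14 (both 0.946). Those most like Meis2 were Zfp362 (0.97), Fbn2 (0.967) and Hoxc4 (0.95), and those most like Meis3 were Cdc42ep1 (0.901), Mapre3 (0.885) and Zfp768 (0.859). The nearest to Pbx2 were Ier5l (0.884), Dag1 (0.874) and Agpat3 (0.872), and to Pbx3 Pknox2 (0.928), Pax6 (0.915) and Mpped1 (0.9). The nearest to Nr2f1 were Zhx2 (0.906), Slc8a1 (0.902) and Hapln1 (0.862), and to Nr2f2 Fat4 (0.93), Nrp1 (0.929) and Daam2 (0.922). The order of neighbours depended on the scaling, since with TMM scaling Hoxc4 was at rank 16 for Meis2, Samd14 at 16 for Meis1, Mpped1 at 71 for Pbx3, and Zhx2 at 8 and Hapln1 at 10 for Nr2f1.

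Over the 35 comparisons between 2 groups, Meis2 was called in 8 (4 higher and 4 lower), Nr2f1 and Nr2f2 in 5 each, Pbx3 in 4, Meis1 in 3, Pbx2 in 2 and Meis3 in 1. All 3 calls of Meis1 were rises from D0 to D2. All calls of Nr2f1 and Nr2f2 were made between D0 and D2 or among progeny, while Meis2 was also called among D6 sorted cells.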

How the data were processed

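RNA was measured in 57 bulk libraries (39 sorted, 18 progeny). Per the study's methods, the authors used STAR for alignment to GENCODE M21 (mouse, GRCm38), sorted the alignments with SAMtools and counted reads per gene with featureCounts, and the deposited values are raw counts. Versions of these tools and the strand setting are not given in the sources used here. Counting does not separate near-identical copies or overlapping genes.

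The table held 55542 lines, of which 92 named no gene and had 0 counts. All 55450 gene identifiers matched the annotation, all columns were mapped to a sample, and 0 pairs of libraries were identical. Depth was 10170632 to 81845651 counts per library, and floors of 3 counts cover counting error only. Members and gene lists were chosen with earlier results of these data known, and Meis2 and Nr2f2 were named in the study from these same samples, so they are not independent evidence.

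Tests were edgeR 4.0.16 (R 4.3.3, limma 3.58.1) quasi-likelihood F-tests with TMM normalization, robust fits and a prior count of 0.125, on genes past filterByExpr (minimum count 10, minimum total 15). They were fitted within each day (populations) or gate (time), and over the single-positive gates for interactions, with p-values adjusted by Benjamini-Hochberg over all genes and a threshold of 0.05. Of 37 comparisons 21 were between populations, 14 within a gate and 2 interactions. The SE given with a log2 change is its absolute size divided by the square root of the F statistic of its test. The authors named no test between groups for these counts. Levels are counts divided by DESeq2 1.42.0 size factors over all libraries, per kb of merged exons where genes are compared, and log2 levels use a pseudocount of 1. From each list at most the 3 called genes of largest change are named. In the list of other TALE and COUP-family genes, 1 gene is not reported here. Alternatives were DESeq2, RLE factors, no filter, all 57 libraries in 1 fit, only the 6 libraries compared, a replicate block and leave-out fits. The leave-out fits dropped each library in turn within a day. In the fits within a gate and for interactions they dropped each replicate number from all groups. Each D0 library was also left out in turn, an alternative added after seeing the data. The procedure was tested on simulated data. Figures were drawn with matplotlib 3.10.9.

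Replicate numbers come from the labels, as biological replicates. Same-numbered libraries were checked by the correlation of their deviations from the group means over the 5000 most abundant genes. All 3 correlations were over 0.1 in 15 of 35 comparisons (all pairs from -0.329 to 0.596), and in these the numbers were taken to pair the libraries. The main tests did not use this pairing, in these comparisons either. It entered only through the replicate block, 1 of the alternatives.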

Additional observations from a re-analysis of the deposited data

Results flagged for a closer look

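Results are listed here where every library of 1 gate moved one way and every library of another gate the opposite way. Pbx3 rose from D2 to D6 in all Sox1+FOXA2- libraries (log2 change of 0.29, an order that 18.4% of all genes tested had) and was lower at D6 in all Sox1-FOXA2+ libraries (-1.03, 6.85% of all genes), a gap of 1.33. The interaction of gate and day for Pbx3 was -1.23 ± 0.54 and did not pass (unadjusted p = 0.0276, adjusted p = 0.305 by edgeR's quasi-likelihood test). Nr2f2 was higher in D6 than in D4 progeny of Sox1+FOXA2- cells in all libraries (0.44, 7.15% of all genes) and lower in progeny of Sox1-FOXA2+ cells (-1.14, 5.12% of all genes), a gap of 1.58, and this difference was not tested. The margins in the Sox1+FOXA2- gate were small. For Pbx3 the highest D2 library held 4412 normalized counts and the lowest D6 library 4440. For Nr2f2 the highest D4 progeny library held 9644 and the lowest D6 progeny library 9730. No change within a gate named here was itself called. With 3 libraries in each group, no single library was tested for lying far from the others.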

How the results depend on the processing

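No fold change of a called member changed sign under any alternative (28 values), whereas 79 of the 231 that were not called changed sign under at least 1. Counts of called members changed by over 1.5 times as follows. With DESeq2 they rose from 1 to 3 for D6 Sox1-FOXA2+ against Sox1+FOXA2-, from 1 to 2 for D6 Sox1-FOXA2+ against double-negative, from 0 to 1 for both D6 comparisons of double-positive, from 0 to 2 (D4) for double-positive against Sox1-FOXA2+ progeny, from 0 to 1 for D6 double-positive against Sox1+FOXA2- progeny, from 1 to 4 and 3 to 5 for D2 against D0 in double-negative and double-positive cells, from 0 to 2 and 0 to 1 for D6 against D2 in double-negative and Sox1+FOXA2- cells, from 0 to 2 and 0 to 1 for D6 progeny against sorted cells in the Sox1+FOXA2- and double-positive gates, and from 0 to 1 for the interaction with progeny.

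With all 57 libraries in 1 fit the counts fell to 0 for both D6 comparisons with a call, from 3 and 4 to 0 for D4 and D6 Sox1-FOXA2+ against Sox1+FOXA2- progeny and from 3 to 0 for D6 double-positive against Sox1-FOXA2+ progeny, while D2 against D0 rose from 1 to 3 and from 3 to 5 in double-negative and double-positive cells. Without the filter they rose for 17 comparisons, to 1 or 2 at D2 (Sox1+FOXA2- and Sox1-FOXA2+ against double-negative), 2, 1 and 2 at D6, 3 and 2 in progeny, 5 and 5 for D2 against D0, 3, 1 and 2 for D6 against D2, 1 between progeny days, 5 and 2 for progeny against sorted cells, and 1 in each interaction. With RLE factors or only the 6 libraries compared, D4 double-positive against Sox1-FOXA2+ progeny had 1, and the latter gave 2 for D6 Sox1-FOXA2+ against double-negative. The cause was not tested in any of these.

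The replicate block gave 3 for D4 double-positive against Sox1-FOXA2+ progeny, 1 for D6 double-positive against Sox1+FOXA2- progeny and 1 for the interaction with progeny (Nr2f2, -2.43, adjusted p = 0.0325). Where the numbers did not pair the libraries, the block gained Meis1 in D6 Sox1-FOXA2+ against Sox1+FOXA2- progeny (-1.18, adjusted p = 0.021) and Pbx2 in Sox1-FOXA2+ cells from D0 to D2 (1.81, adjusted p = 0.049), and Nr2f2 was not called in the latter (4.17, adjusted p = 0.0583).

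With 1 library left out at a time, counts ranged from 0 to 1 and 1 to 2 for D6 Sox1-FOXA2+ against Sox1+FOXA2- and double-negative. For D4 and D6 double-positive against Sox1-FOXA2+ progeny they ranged from 0 to 2 and 0 to 4. Fits within a gate instead left out 1 replicate number from all groups and, for D2 against D0, also 1 D0 library at a time. Over these fits counts ranged from 0 to 2, 1 to 5, 0 to 5 and 1 to 4 for D2 against D0 in double-negative, Sox1+FOXA2-, Sox1-FOXA2+ and double-positive cells. The range was 0 to 1 for D6 against D2 in Sox1-FOXA2+ cells and 0 to 1 for progeny against sorted cells in the Sox1+FOXA2- and double-positive gates. From D0 to D2 Meis1 was not called without replicate 2 in any gate with a reporter on (adjusted p = 0.206, 0.109 and 0.0806). RLE factors moved the median change of all genes by over 0.1 in 11 comparisons (-0.248 to 0.257). Depth limits Nr2f1 and Meis3 most, since both have libraries at 0.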
